A study of Mus musculus with 12 samples.

Results

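This account covers 39 genes of the lysosome, the acidic compartment in which cells break down what they take up, in liver macrophages of mice. The genes were a list of lysosomal enzymes, membrane proteins and regulators, chosen with earlier results of these data known. They were matched by symbol in the table of read counts. All 39 had counts, and all 39 passed the filter on low counts, out of 25700 genes listed and 13844 genes tested. RNA sequencing was done on non-parenchymal liver cells that beads had captured by F4/80, a macrophage surface protein of the mouse. This is an enrichment, and other cells remain in it. Mice labelled Spta wt/wt (littermate wild type, called WT) or Spta sph/sph, whose red cells are spherical and fragile and are destroyed early, were injected intraperitoneally with saline or with an activating antibody against CD40 at 20 mg/kg. The antibody acted for 30 h, and the labels give males of 8 to 10 weeks. Each of the 4 groups held 3 libraries, 1 per mouse by the series' design text. The sph mutation is carried in every cell of the mouse, and the labels name no strain background.

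Lysosomes hold proteases, sugar-cutting enzymes and lipases that work at acid pH, which a proton pump (the V-ATPase) maintains. In macrophages that clear red cells, such as the Kupffer cells of the liver, the engulfed cell is digested in the lysosome and its iron, heme and lipids are passed on. Many lysosome genes share an E-box motif and are switched on together by the related transcription factors TFEB, TFE3 and MITF when the lysosome is loaded or nutrients are short. CD40 is a costimulatory receptor on antigen-presenting cells, and its engagement activates macrophages towards inflammation.

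Levels are CPM, that is, each gene's reads relative to the size of its library after scaling by the TMM method. Folds are on the log2 scale with an approximate standard error (SE), and a gene was called where edgeR's quasi-likelihood test gave an adjusted p under 0.05 over all 13844 genes. Genes are said to have risen or fallen, or to be higher or lower, where they were called, and otherwise the words refer to single libraries or means. Depth ran from 14991250 to 18984067 counts per library. Column names of the control animals read heterozygous, while every label reads wild type, which is the name used here. In each group the library named A had 0 counts for 4 Y-linked genes, against 132.8 to 224.7 CPM summed in the other 8, although the labels give males. In each treatment the A libraries of both genotypes carry a shared ID number in their column names, whose meaning is not given, and no other libraries share one. Across all genes sph/sph anti-CD40 C stood apart from its group, with a median correlation of 0.88 to the other libraries of its group against 0.92 to 0.97 for the other 11 libraries. Exons of Ctsd overlap those of the gene model Gm49369 on the same strand over 34.4% of their length. Same-strand overlaps also exist for Ctsl (6.1%, the pseudogene Gm49230) and Glb1 (5.5%, Tmppe). Exons of Ctsl (26.8%), Ctsb (12.8%), Hexa (12.8%) and Ctsa (10.5%, and 6.9% with a second gene) overlap a gene on the other strand, other members less or not at all. Counts are uncertain to the extent of these overlaps.

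On the scaled CPM, the 39 genes together stood at 4.54% in WT saline, 5.77% in sph/sph saline, 2.05% in WT anti-CD40 and 3.92% in sph/sph anti-CD40. These percents follow the library sizes after TMM scaling and are not exact shares of the reads. Their summed level ran from 40710 to 51450 CPM over the WT saline libraries and from 46900 to 66630 CPM over sph/sph saline, and these ranges overlapped. In WT anti-CD40 the sums were 29190, 15510 and 16870 CPM, all below every other library, and in sph/sph anti-CD40 they were 38930, 43360 and 35210 CPM. Library A of WT anti-CD40 was the highest of its group for 35 of the 39 genes, all but Lamp2, Scarb2, Lgmn and Ctsl. The same count over all genes was not made, so it is not known whether this is particular to the lysosome genes. Per kilobase of exon, the highest mean levels in WT saline were those of Ctss (2437 CPM per kb), Ctsb (2093), Psap (2045), Ctsd (1419) and Lgmn (1416). In sph/sph saline the order was Psap (3460 CPM per kb), Ctsd (3005) and Ctsb (2738). The lowest in WT saline were Gpnmb (0.487 CPM per kb), Atp6v0d2 (0.534) and Ctsk (0.883).

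**Figure D1:**
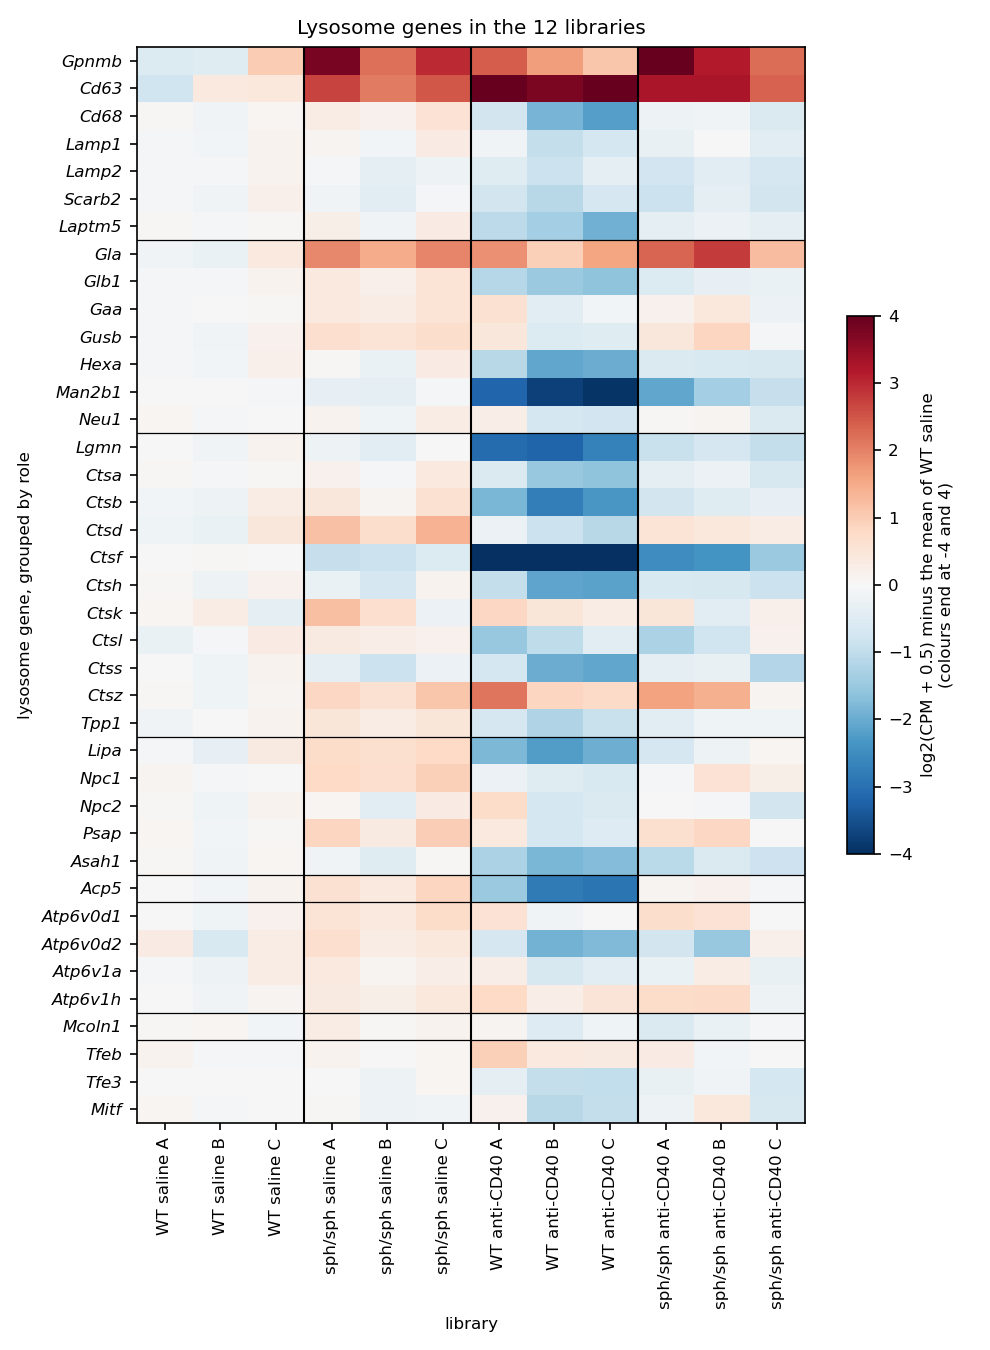
Level of each of the 39 genes (rows, grouped by role) in each of the 12 libraries (columns), as log2(CPM + 0.5) minus the gene's mean over the 3 WT saline libraries; red is higher, blue is lower, and colours end at -4 and 4. Gpnmb and Cd63 are red outside WT saline, and most proteases are bluest in WT anti-CD40.

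Motifs near the start sites were counted in RefSeq promoter windows of the mouse genome (build GRCm38.p6), each reaching from before a transcript start to shortly after it. Of the 39 genes, 33 had at least 1 window, 43 windows in all. The letters CACGTG (an E-box) stood in 12 of the 43 windows (27.9%), against 7.15% of 32851 windows of all genes. GTCACGTG, which contains CACGTG and is the core of the element bound by TFEB, stood in 8 (18.6%) against 2.25%, and TCATGTG in 6 (14.0%) against 3.77%. Both strands were searched. The 8 genes with GTCACGTG were Atp6v0d1, Ctsa, Ctsd, Gla, Glb1, Lamp1, Lgmn and Mcoln1.

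Windows of 6 genes are shown, each 5′ to 3′ on the gene's strand with these motifs in capitals. Ctsf, Man2b1, Lgmn and Cd63 are the genes whose response to anti-CD40 differed between the genotypes, Gla was higher in sph/sph under saline, and Mcoln1, which holds 2 copies of GTCACGTG, was called in no comparison. The windows lie at chr19:4854915-4855214 (Ctsf, plus strand), chr8:85083019-85083318 (Man2b1, plus), chr12:102439043-102439342 (Lgmn, minus), chr10:128909095-128909394 (Cd63, plus), chrX:134600956-134601255 (Gla, minus) and chr8:3500269-3500568 (Mcoln1, plus). The window of Man2b1 surrounds a start at the edge of the annotated gene, and those of the other genes shown surround starts inside it. A second Lgmn window held none of the motifs.
Ctsf: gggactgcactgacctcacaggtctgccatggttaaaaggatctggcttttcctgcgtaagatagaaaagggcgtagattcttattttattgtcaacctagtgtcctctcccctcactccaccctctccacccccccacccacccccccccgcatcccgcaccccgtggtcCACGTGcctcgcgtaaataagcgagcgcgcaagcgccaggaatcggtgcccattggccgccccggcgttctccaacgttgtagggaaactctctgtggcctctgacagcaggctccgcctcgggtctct
Man2b1: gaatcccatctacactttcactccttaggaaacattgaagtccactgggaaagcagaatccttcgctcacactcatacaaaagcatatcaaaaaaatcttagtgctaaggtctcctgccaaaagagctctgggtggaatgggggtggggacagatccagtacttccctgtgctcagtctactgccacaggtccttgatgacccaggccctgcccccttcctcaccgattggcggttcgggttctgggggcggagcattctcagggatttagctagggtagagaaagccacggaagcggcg
Lgmn: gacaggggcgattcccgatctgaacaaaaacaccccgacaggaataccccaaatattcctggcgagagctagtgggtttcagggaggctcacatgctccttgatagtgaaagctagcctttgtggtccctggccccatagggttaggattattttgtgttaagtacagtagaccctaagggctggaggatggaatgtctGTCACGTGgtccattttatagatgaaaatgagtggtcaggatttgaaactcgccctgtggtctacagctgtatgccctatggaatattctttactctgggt
Cd63: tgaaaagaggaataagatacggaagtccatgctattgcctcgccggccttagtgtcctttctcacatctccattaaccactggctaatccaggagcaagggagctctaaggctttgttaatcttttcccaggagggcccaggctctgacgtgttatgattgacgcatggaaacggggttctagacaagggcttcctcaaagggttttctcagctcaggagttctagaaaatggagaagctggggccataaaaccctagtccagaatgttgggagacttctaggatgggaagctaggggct
Gla: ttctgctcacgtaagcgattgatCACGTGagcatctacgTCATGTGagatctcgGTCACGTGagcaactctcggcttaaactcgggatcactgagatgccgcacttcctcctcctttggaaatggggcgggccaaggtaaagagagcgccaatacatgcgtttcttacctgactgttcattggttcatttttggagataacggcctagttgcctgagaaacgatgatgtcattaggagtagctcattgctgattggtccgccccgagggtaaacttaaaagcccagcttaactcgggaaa
Mcoln1: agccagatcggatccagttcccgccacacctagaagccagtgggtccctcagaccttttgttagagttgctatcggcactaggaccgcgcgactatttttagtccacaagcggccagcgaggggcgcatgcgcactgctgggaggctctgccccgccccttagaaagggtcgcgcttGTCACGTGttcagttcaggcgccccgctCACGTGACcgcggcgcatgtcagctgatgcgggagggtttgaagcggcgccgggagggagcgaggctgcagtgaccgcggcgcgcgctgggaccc

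CACGTG in Ctsf began 79 bases before the start. GTCACGTG in Lgmn began 51 bases before it, and the 2 copies in Mcoln1 began 73 and 45 bases before it. Gla held CACGTG from 227, TCATGTG from 211 and GTCACGTG from 196 bases before its start, and the windows of Man2b1 and Cd63 held none of the 3 motifs. A match describes these letters in these windows and is not evidence of binding.

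The comparison of sph/sph with WT under saline asks how the lysosome genes stand where red cells are destroyed early, with no further stimulus. Of the 39 genes 3 rose and none fell (7.69%, against 2.04% called among all genes, 1.60% higher and 0.433% lower): the membrane glycoprotein Gpnmb, the tetraspanin Cd63 and the galactosidase Gla. The median log2 fold of the 39 was 0.24, against 0.01 for all genes tested, and 29 lay above 0. In 16 genes every sph/sph library lay above every WT library (16.7% of all genes did so), and in 3 every one lay below (14.3%). None of the 6 fits that left out 1 saline library called any of the 39, nor did the fit without the 4 libraries lacking Y-linked counts. DESeq2 called 5 (5.69% of the genes it tested) and limma-voom called 1 (1.79% of all genes). Without sph/sph anti-CD40 C edgeR called 5, of which 4 rose and 1, the protease Ctsf, fell.

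Gpnmb stood at 1.67, 1.81 and 6.04 CPM in WT under saline and at 44.3, 14.2 and 24.7 CPM in sph/sph. With anti-CD40, Gpnmb stood at 16.7, 9.76 and 6.40 CPM in WT and at 49.8, 28.2 and 14.5 CPM in sph/sph. Gpnmb is a glycoprotein that macrophages make when their lysosomes are loaded with lipid or debris. All 3 sph/sph saline libraries lay above the WT ones, by a log2 fold of 3.12 ± 0.68 (edgeR adjusted p = 0.0478), and the WT anti-CD40 libraries did too (1.78 ± 0.66, edgeR adjusted p = 0.0543). The call under saline was lost in 10 of the 12 fits that left out 1 library.

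Cd63 stood at 4.43, 10.7 and 11.0 CPM in WT under saline and at 55.9, 35.4 and 47.4 CPM in sph/sph. With anti-CD40, Cd63 stood at 351, 115 and 149.6 CPM in WT and at 82.9, 81.5 and 43.6 CPM in sph/sph. Cd63 is a tetraspanin of late endosomes, lysosomes and exosomes. It was lowest in WT saline and highest in WT anti-CD40, and the ranges of these groups overlapped with no other. The log2 fold was 2.41 ± 0.49 for genotype under saline (edgeR adjusted p = 0.0346) and 4.56 ± 0.53 for anti-CD40 in WT (edgeR adjusted p = 0.00019). In sph/sph the saline and anti-CD40 ranges overlapped (0.58 ± 0.46, edgeR adjusted p = 0.485). With anti-CD40 it was the only member lower in sph/sph (-1.57 ± 0.47, edgeR adjusted p = 0.0431), a call lost in 10 of the 12 fits that left out 1 library. The saline call was lost in 7 of those 12 fits, any saline library among them.

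Gla stood at 16.4, 14.9 and 23.9 CPM in WT under saline and at 69.0, 51.2 and 71.2 CPM in sph/sph. With anti-CD40, Gla stood at 65.8, 35.5 and 55.1 CPM in WT and at 93.0, 127 and 43.4 CPM in sph/sph. Gla encodes alpha-galactosidase A, which removes galactose from glycolipids. WT saline lay below the 3 other groups without overlap. The log2 fold was 1.79 ± 0.38 for genotype under saline (edgeR adjusted p = 0.0399) and 1.50 ± 0.38 for anti-CD40 in WT (edgeR adjusted p = 0.0108). The saline call ended when any of the 6 saline libraries was left out, and likewise for sph/sph anti-CD40 A and for WT anti-CD40 C. The WT call ended without WT saline B (edgeR adjusted p = 0.0501).

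Npc1, which moves cholesterol out of the lysosome, came next under saline. Npc1 stood at 152, 133 and 139 CPM in WT under saline and at 244, 223 and 276 CPM in sph/sph. With anti-CD40, Npc1 stood at 121, 99.6 and 92.5 CPM in WT and at 133, 209 and 165 CPM in sph/sph. All sph/sph saline libraries lay above the WT ones, with a log2 fold of 0.81 ± 0.18 and an edgeR adjusted p of 0.0516. Under anti-CD40 it was higher in sph/sph (0.70 ± 0.18, edgeR adjusted p = 0.0244). That call was lost when library B of sph/sph anti-CD40, or either B or C of the WT anti-CD40 group, was left out, with an edgeR adjusted p of up to 0.101.

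**Figure D2:**
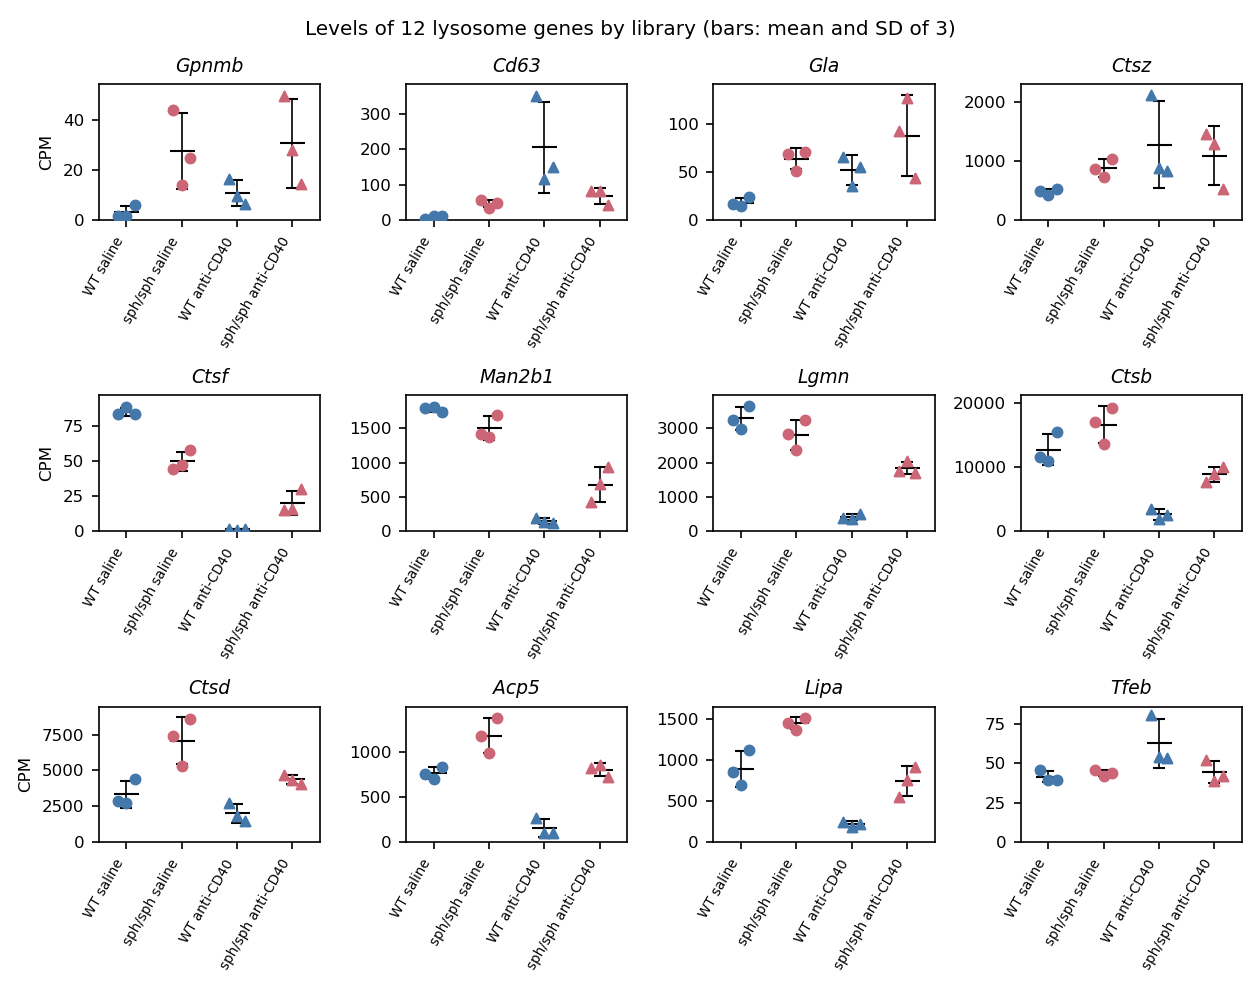
CPM (y axis, from 0) of 12 lysosome genes in each library (points) by group (x axis), with the mean and SD of 3 libraries in black. Gpnmb, Cd63 and Gla are lowest in WT saline, and Ctsf, Man2b1 and Lgmn are lowest in WT anti-CD40.

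Anti-CD40 against saline in WT asks what CD40 engagement does to these genes in the control genotype. Of the 39 genes 18 fell and 4 rose (56.4% called, against 39.2% among all genes, 19.7% lower and 19.4% higher). The falls covered 7 of 11 proteases, 3 of 7 enzymes that cut sugar chains, 4 of 7 membrane proteins, 2 of 5 lipid-handling proteins, the acid phosphatase Acp5 and the transcription factor Tfe3. Cd63, Gla, the protease Ctsz and the transcription factor Tfeb rose. The median log2 fold was -0.73, against 0.05 over all genes, and 22 genes had every anti-CD40 library below every saline library (28.0% of all genes did so) while 7 had every one above (29.3%). Leaving out 1 library gave 18 to 26 calls, and leaving out the 4 libraries lacking Y-linked counts gave 17.

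In sph/sph the same comparison called 1 of the 39, the protease Ctsf, which fell (2.56%, against 0.780% among all genes, 0.202% lower and 0.578% higher). At an unadjusted p under 0.05 there were 14 (21.0% of all genes passed), limma-voom called 1 (0.462% of all genes), and DESeq2 called 9, all lower (9.52% of the genes it tested). The median log2 fold was -0.45, against 0.04 over all genes. In 18 genes every anti-CD40 library lay below every saline library (11.6% of all genes did so) and in none did every library lie above (10.1%). Without sph/sph anti-CD40 C, the library that stood apart, 6 genes were called, and leaving out any library other than it or WT anti-CD40 A gave 0 calls.

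Under anti-CD40, sph/sph against WT asks how the genotypes differ once CD40 is engaged. Of the 39 genes 14 were higher in sph/sph and 1, Cd63, was lower (38.5% called, against 17.7% among all genes, 11.5% higher and 6.19% lower). The median log2 fold was 0.70, against 0.08 over all genes. The higher genes were 5 of 11 proteases, 3 of 7 enzymes that cut sugar chains, 3 of 5 lipid-handling proteins, 2 of 7 membrane proteins and Acp5. In 15 genes all sph/sph libraries lay above all WT libraries (16.7% of all genes did so), and in 2, Cd63 and Tfeb, all lay below (11.7%). The count was 22 without WT anti-CD40 A, 9 without WT anti-CD40 B, 8 without WT anti-CD40 C and 8 without sph/sph anti-CD40 B. Whether the calls among all genes moved alike in these fits is not given here. Without sph/sph anti-CD40 C it stayed at 15, without the 4 libraries lacking Y-linked counts it was 10, and a fit of these 2 groups alone called 6. Cd63, Cd68, Laptm5, Hexa, Ctsb, Ctsd, Tpp1, Npc1 and Asah1 lost their call in that fit.

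The difference between both responses (that of sph/sph minus that of WT) was tested by itself. It was called for 4 of the 39 genes (10.3%, against 4.30% among all genes, 3.18% positive and 1.12% negative): Ctsf, Man2b1 and Lgmn were positive, and Cd63 was negative. The median over the 39 was 0.22, against 0.05 over all genes. In the GENCODE annotation of GRCm38, Ctsf (ENSMUSG00000083282) lies at chr19:4855130-4860918, Man2b1 (ENSMUSG00000005142) at chr8:85083270-85098282, Lgmn (ENSMUSG00000021190) at chr12:102394084-102439813 and Cd63 (ENSMUSG00000025351) at chr10:128900989-128912822. These 4 were called in each of the 12 fits that left out 1 library. DESeq2 called 8 of the 39 (9.77% of the genes it tested). Without WT anti-CD40 A, 12 genes were called, and without the 4 libraries lacking Y-linked counts 3 were, with Lgmn not among them. The comparisons of anti-CD40 with saline in WT and of sph/sph with WT under anti-CD40 share the WT anti-CD40 libraries, and each is given by its own values.

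**Figure D3:**
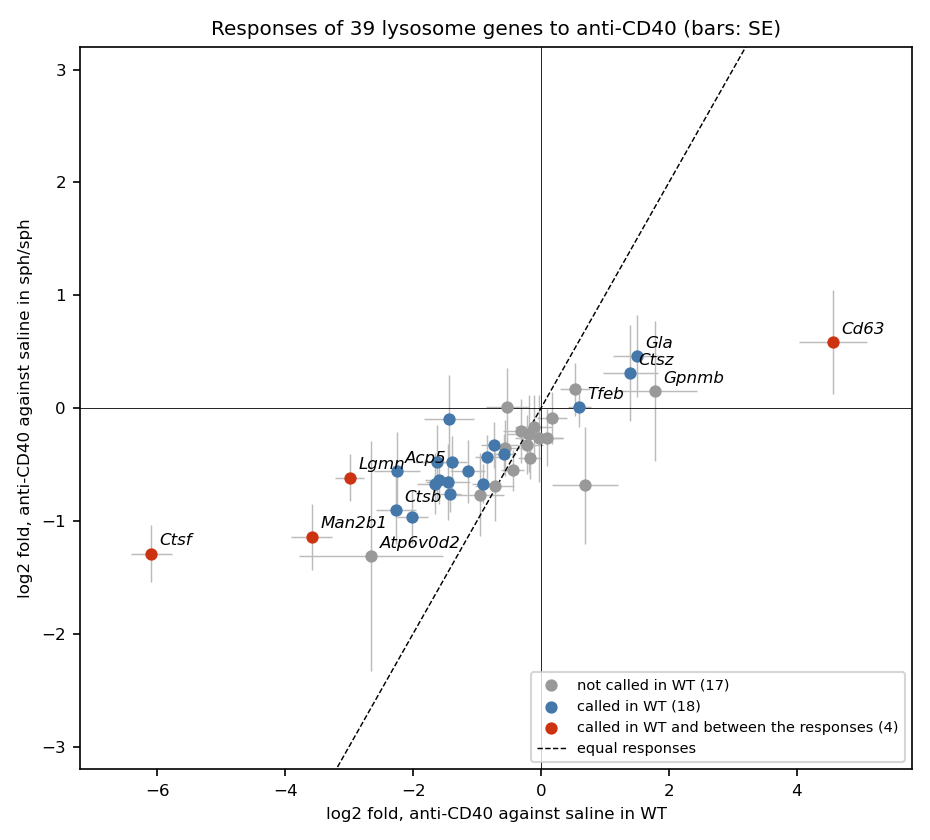
Log2 fold of anti-CD40 against saline in WT (x axis) and in sph/sph (y axis) for the 39 genes, with SE bars; the dashed line marks equal responses, blue and red points were called in WT, and red points were also called for the difference of the responses. Ctsf, Man2b1 and Lgmn lie far to the left of the line and Cd63 far to the right.

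Markers of cell types in the preparation changed along with these values. The 10 Kupffer cell markers summed to 29490 to 34710 CPM in WT saline, 33640 to 47840 in sph/sph saline, 435.4 to 1044 in WT anti-CD40 and 21410 to 38500 in sph/sph anti-CD40. By mean, Marco was the largest marker in sph/sph anti-CD40, and in sph/sph saline it came after Cd5l (13940 CPM). Marco averaged 653.9 CPM in WT saline, 11330 in sph/sph saline, 486.9 in WT anti-CD40 and 14780 in sph/sph anti-CD40. Under saline 8 of the 10 markers had a log2 fold of sph/sph against WT below 0 (median -0.36), and only Marco was called, as higher. Of these 10 markers, 9 fell with anti-CD40 in WT and none was called in sph/sph, and all 10 were higher in sph/sph than in WT under anti-CD40. In sph/sph 9 of the 10 still had a log2 fold below 0 with anti-CD40 (median -1.03). In 7 of them every sph/sph anti-CD40 library lay below every sph/sph saline library (11.6% of all genes did so). Adgre1, which encodes F4/80 itself, averaged 1777 CPM in WT saline, 1741 in sph/sph saline, 88.0 in WT anti-CD40 and 1505 in sph/sph anti-CD40. T and NK cell markers rose with anti-CD40 in WT (10 of 10, from a mean sum of 2.63 to 714 CPM), as did 5 of 10 monocyte markers (from 427 to 2527 CPM) and 4 of 10 dendritic cell markers (from 386 to 1147 CPM), while 1 dendritic cell marker fell. In sph/sph the mean sums went from 292 to 1499 CPM (monocyte), 6.37 to 39.6 (T and NK) and 380 to 427 (dendritic). All 10 monocyte and all 10 T and NK markers had log2 folds above 0 there, with 1 monocyte marker called. Between the genotypes under anti-CD40 no monocyte marker was called, and 5 of 10 T and NK markers and 2 of 10 dendritic cell markers were lower in sph/sph. Within WT anti-CD40 the T and NK cell markers summed to 185 CPM in library A, 1420 in B and 539 in C, and the monocyte markers to 3769, 2543 and 1268 CPM. B cell markers summed to 328 and 123 CPM in sph/sph anti-CD40 A and B and to 3841 CPM in C, the library that stood apart. Erythroid markers were higher in sph/sph under saline (10 of 10, 5303 to 9328 CPM summed, against at most 321.4 in WT saline). Under anti-CD40 they were too (10 of 10, 4537 to 17180 CPM summed, against at most 205.7 in WT). No marker of the Kupffer, T and NK, monocyte, dendritic and erythroid lists was at 0 in a whole group. In bulk samples fewer cells of a type and less RNA per cell cannot be told apart, and the part of these markers in the lysosome values was not tested.

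Among the proteases Ctsf, a cysteine cathepsin, had the largest log2 fold of the 39 in WT. Ctsf stood at 83.3, 88.5 and 83.1 CPM in WT under saline and at 44.5, 46.8 and 57.6 CPM in sph/sph. With anti-CD40, Ctsf stood at 1.40, 0.997 and 1.33 CPM in WT and at 14.9, 15.8 and 30.1 CPM in sph/sph. The WT anti-CD40 values rest on 21, 19 and 27 counts. The groups did not overlap in any of the 4 pairings tested. Ctsf fell by 6.09 ± 0.32 on the log2 scale in WT (edgeR adjusted p = 2.43e-06) and by 1.29 ± 0.25 in sph/sph (edgeR adjusted p = 0.0495), and the difference of the responses was 4.80 ± 0.38 (edgeR adjusted p = 0.000162). Under saline the sph/sph libraries lay below the WT ones (-0.78 ± 0.25, edgeR adjusted p = 0.17), and with anti-CD40 they were higher (4.03 ± 0.29, edgeR adjusted p = 3.7e-05). Mean Ctsf under anti-CD40 was 1.46% of its saline mean in WT and 40.8% in sph/sph. The call in sph/sph was lost in 10 of the 12 fits that left out 1 library.

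Lgmn encodes legumain, an asparaginyl endopeptidase that processes other lysosomal proteases. Lgmn stood at 3231, 2995 and 3641 CPM in WT under saline and at 2828, 2371 and 3248 CPM in sph/sph. With anti-CD40, Lgmn stood at 391, 352 and 499.7 CPM in WT and at 1767, 2036 and 1702 CPM in sph/sph. Every WT anti-CD40 library lay below the rest, and the saline groups overlapped. Lgmn fell by 2.99 ± 0.22 on the log2 scale in WT (edgeR adjusted p = 1.75e-05), and its log2 fold in sph/sph was -0.62 ± 0.21 (edgeR adjusted p = 0.144). The difference of the responses was 2.37 ± 0.30 (edgeR adjusted p = 0.00185), and under anti-CD40 Lgmn was higher in sph/sph by 2.15 ± 0.22 (edgeR adjusted p = 0.000187).

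Ctsb stood at 11590, 10990 and 15400 CPM in WT under saline and at 17030, 13530 and 19140 CPM in sph/sph. With anti-CD40, Ctsb stood at 3528, 1859 and 2481 CPM in WT and at 7604, 8906 and 9995 CPM in sph/sph. Ctsb, a cysteine protease that is among the most abundant of the macrophage, was lower in WT anti-CD40 than in every library of the other groups. It fell by 2.27 ± 0.31 on the log2 scale in WT (edgeR adjusted p = 0.000436) and was higher in sph/sph under anti-CD40 (1.75 ± 0.30, edgeR adjusted p = 0.00372), while the difference of the responses was 1.36 ± 0.42 with an edgeR adjusted p of 0.102. The call between genotypes was absent from the fit of the 2 anti-CD40 groups alone.

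Ctsd stood at 2867, 2731 and 4413 CPM in WT under saline and at 7366, 5282 and 8549 CPM in sph/sph. With anti-CD40, Ctsd stood at 2754, 1794 and 1507 CPM in WT and at 4715, 4363 and 4027 CPM in sph/sph. Ctsd encodes cathepsin D, an aspartic protease. Every sph/sph saline library lay above every library of the other groups. Under anti-CD40 the log2 fold of sph/sph against WT was 1.11 ± 0.31 (edgeR adjusted p = 0.0312), and under saline it was 1.08 ± 0.31 (edgeR adjusted p = 0.12). With anti-CD40 its log2 fold was -0.73 ± 0.30 in WT and -0.69 ± 0.30 in sph/sph (edgeR adjusted p = 0.0815 and 0.227), and the difference of the responses was 0.03 ± 0.43 (edgeR adjusted p = 0.98). The call under anti-CD40 was lost in 5 of the 12 fits that left out 1 library.

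Ctss stood at 3370, 2958 and 3600 CPM in WT under saline and at 2537, 1827 and 2784 CPM in sph/sph. With anti-CD40, Ctss stood at 2031, 836 and 781 CPM in WT and at 2546, 2688 and 1455 CPM in sph/sph. Ctss, which trims the invariant chain for antigen presentation, fell in WT by 1.44 ± 0.39 on the log2 scale (edgeR adjusted p = 0.0154). WT anti-CD40 A, at 2031 CPM, was over the other libraries of its group and overlapped with sph/sph anti-CD40. Mean Ctss under anti-CD40 was 36.8% of the saline mean in WT and 93.6% in sph/sph, and the difference of the responses was 1.35 ± 0.55 (edgeR adjusted p = 0.213). The WT call was lost without WT anti-CD40 B or C.

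Ctsz stood at 502, 432 and 527 CPM in WT under saline and at 865, 741 and 1043 CPM in sph/sph. With anti-CD40, Ctsz stood at 2132, 888 and 829 CPM in WT and at 1468, 1294 and 528 CPM in sph/sph. Ctsz, a carboxypeptidase, rose in WT by 1.40 ± 0.43 on the log2 scale (edgeR adjusted p = 0.0274), unlike the proteases that fell. Its WT anti-CD40 mean rested in part on library A, at 2132 CPM, and without that library the call was lost, as it was without any one WT saline library. In sph/sph the groups overlapped.

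Ctsh stood at 1158, 979.8 and 1260 CPM in WT under saline and at 938, 713 and 1238 CPM in sph/sph. With anti-CD40, Ctsh stood at 582, 261 and 253 CPM in WT and at 734, 721 and 614 CPM in sph/sph. Ctsh, an aminopeptidase, fell in WT by 1.63 ± 0.34 on the log2 scale (edgeR adjusted p = 0.00408) and did not overlap between the genotypes under anti-CD40, where the log2 fold of sph/sph against WT was 0.92 ± 0.33 (edgeR adjusted p = 0.0837). Ctsa stood at 1217, 1100 and 1199 CPM in WT under saline and at 1315, 1100 and 1535 CPM in sph/sph. With anti-CD40, Ctsa stood at 789, 412 and 385 CPM in WT and at 922, 1006 and 749 CPM in sph/sph. Ctsa, the serine carboxypeptidase that protects the galactosidase Glb1 and the sialidase Neu1, fell in WT by 1.15 ± 0.28 on the log2 scale (edgeR adjusted p = 0.00945), and WT anti-CD40 A overlapped with sph/sph anti-CD40.

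Tpp1 stood at 332, 356 and 403 CPM in WT under saline and at 503, 444 and 505 CPM in sph/sph. With anti-CD40, Tpp1 stood at 229.8, 158 and 194 CPM in WT and at 268, 322 and 323 CPM in sph/sph. Tpp1, a serine peptidase that removes tripeptides, was highest in sph/sph saline and lowest in WT anti-CD40, and these groups overlapped with no other. It fell in WT by 0.91 ± 0.17 on the log2 scale (edgeR adjusted p = 0.00261) and was higher in sph/sph under anti-CD40 (0.65 ± 0.17, edgeR adjusted p = 0.0258). The call between the genotypes was lost when library B of sph/sph anti-CD40, or either B or C of the WT anti-CD40 group, was left out, and without the 4 libraries lacking Y-linked counts.

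The cysteine proteases Ctsl and Ctsk were called in no comparison. Ctsl stood at 419.9, 488 and 638 CPM in WT under saline and at 649, 616 and 566 CPM in sph/sph. With anti-CD40, Ctsl stood at 177, 249.7 and 374 CPM in WT and at 209.5, 292 and 575 CPM in sph/sph. Ctsl in WT lay below saline in every anti-CD40 library, with a log2 fold of -0.95 ± 0.37 (edgeR adjusted p = 0.0667). Ctsk, the bone collagen protease of osteoclasts, ranged from 0.814 to 3.66 CPM over the 12 libraries.

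Man2b1, the lysosomal alpha-mannosidase, had the largest fall among the enzymes that cut sugar chains. Man2b1 stood at 1794, 1806 and 1738 CPM in WT under saline and at 1422, 1373 and 1699 CPM in sph/sph. With anti-CD40, Man2b1 stood at 196, 132 and 118 CPM in WT and at 420.0, 686 and 933 CPM in sph/sph. The WT anti-CD40 libraries lay below all others, and sph/sph anti-CD40 lay between them and saline. Man2b1 fell by 3.58 ± 0.32 on the log2 scale in WT (edgeR adjusted p = 4.2e-05), and its log2 fold in sph/sph was -1.14 ± 0.29 (edgeR adjusted p = 0.0876). The difference of the responses was 2.44 ± 0.41 (edgeR adjusted p = 0.00989), and under anti-CD40 sph/sph was higher by 2.19 ± 0.30 (edgeR adjusted p = 0.00106). The fall in sph/sph was called without sph/sph anti-CD40 C, the highest library of its group at 933 CPM.

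Glb1 stood at 112, 112 and 131 CPM in WT under saline and at 155, 135 and 172 CPM in sph/sph. With anti-CD40, Glb1 stood at 52.9, 41.6 and 38.4 CPM in WT and at 80.8, 94.3 and 97.4 CPM in sph/sph. Glb1, the beta-galactosidase whose activity at a less acid pH marks senescent cells, had 4 groups in separate ranges, in the order sph/sph saline, WT saline, sph/sph anti-CD40 and WT anti-CD40. It fell by 1.42 ± 0.16 on the log2 scale in WT (edgeR adjusted p = 0.000147) and was higher in sph/sph under anti-CD40 (1.04 ± 0.16, edgeR adjusted p = 0.00184). In sph/sph the log2 fold with anti-CD40 was -0.76 ± 0.16 (edgeR adjusted p = 0.054).

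Hexa stood at 646, 631 and 788 CPM in WT under saline and at 711, 568 and 868 CPM in sph/sph. With anti-CD40, Hexa stood at 318, 162 and 171 CPM in WT and at 459, 450.0 and 442 CPM in sph/sph. Hexa, a subunit of the hexosaminidase that degrades GM2 ganglioside, fell in WT by 1.66 ± 0.27 on the log2 scale (edgeR adjusted p = 0.00117) and was higher in sph/sph under anti-CD40 (1.05 ± 0.27, edgeR adjusted p = 0.0227). The 3 sph/sph anti-CD40 libraries lay between 442 and 459 CPM, above every WT anti-CD40 library and below every saline library. Leaving out any of 4 of the anti-CD40 libraries (WT B or C, sph/sph A or B) ended that call.

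Gaa, Gusb and Neu1, which cut glycogen, glucuronides and sialic acid, were called in no comparison. Gaa averaged 169 ± 5.88 CPM in WT saline, 224 ± 19.8 CPM in sph/sph saline, 180.0 ± 68.8 CPM in WT anti-CD40 and 187 ± 43.0 CPM in sph/sph anti-CD40 (SD, n = 3). Gusb averaged 210.4 ± 24.4 CPM in WT saline, 327 ± 20.3 CPM in sph/sph saline, 194 ± 82.2 CPM in WT anti-CD40 and 290.3 ± 86.3 CPM in sph/sph anti-CD40 (SD, n = 3). Both lay higher in every sph/sph saline library than in every WT saline library, with log2 folds of 0.41 ± 0.25 (edgeR adjusted p = 0.554) and 0.63 ± 0.29 (edgeR adjusted p = 0.386). Neu1 averaged 178 ± 10.7 CPM in WT saline, 191 ± 29.2 CPM in sph/sph saline, 143 ± 62.9 CPM in WT anti-CD40 and 165 ± 39.5 CPM in sph/sph anti-CD40 (SD, n = 3), and its groups overlapped in all 4 comparisons of groups.

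Of the lipid-handling proteins, Lipa and Asah1 fell in WT. Lipa stood at 859, 700.5 and 1128 CPM in WT under saline and at 1460, 1375 and 1524 CPM in sph/sph. With anti-CD40, Lipa stood at 251, 188 and 228 CPM in WT and at 555, 762 and 919 CPM in sph/sph. Lipa, the acid lipase that frees cholesterol from its esters, was highest in sph/sph saline and lowest in WT anti-CD40 without overlap. It fell in WT by 2.01 ± 0.25 on the log2 scale (edgeR adjusted p = 0.000233) and was higher in sph/sph under anti-CD40 (1.75 ± 0.24, edgeR adjusted p = 0.00117).

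Asah1 stood at 811, 708 and 820.0 CPM in WT under saline and at 711, 558 and 802 CPM in sph/sph. With anti-CD40, Asah1 stood at 321, 221 and 234 CPM in WT and at 372, 523 and 438 CPM in sph/sph. Asah1, acid ceramidase, fell in WT by 1.59 ± 0.22 on the log2 scale (edgeR adjusted p = 0.000428). Every sph/sph anti-CD40 library lay above every WT anti-CD40 library (0.78 ± 0.21, edgeR adjusted p = 0.0297), a call lost in 4 of the 12 fits that left out 1 library.

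Psap stood at 5878, 5149 and 5804 CPM in WT under saline and at 10250, 7258 and 10970 CPM in sph/sph. With anti-CD40, Psap stood at 7387, 3464 and 3943 CPM in WT and at 8791, 9990 and 5550 CPM in sph/sph. Psap encodes prosaposin, the precursor of the saposins that help enzymes reach sphingolipids, and it was called in no comparison. Every sph/sph saline library lay above every WT saline library (0.76 ± 0.34, edgeR adjusted p = 0.383), and the anti-CD40 groups overlapped with each other. Npc2, which hands cholesterol to Npc1, averaged 854 ± 94.2 CPM in WT saline, 868 ± 219 CPM in sph/sph saline, 835 ± 504 CPM in WT anti-CD40 and 720.0 ± 187 CPM in sph/sph anti-CD40 (SD, n = 3), with WT anti-CD40 A at 1416 CPM and its other libraries at 522 and 568 CPM.

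Acp5 stood at 755, 696 and 829 CPM in WT under saline and at 1168, 987 and 1374 CPM in sph/sph. With anti-CD40, Acp5 stood at 272, 106 and 99.9 CPM in WT and at 819.7, 855 and 718 CPM in sph/sph. Acp5, the tartrate-resistant acid phosphatase, fell in WT by 2.26 ± 0.36 on the log2 scale (edgeR adjusted p = 0.00102). With anti-CD40 it was higher in sph/sph by 2.33 ± 0.36 (edgeR adjusted p = 0.00199), and every sph/sph library lay above every WT library. The difference of the responses was 1.70 ± 0.49 with an edgeR adjusted p of 0.0848, and it was called without WT anti-CD40 A.

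**Figure D4:**
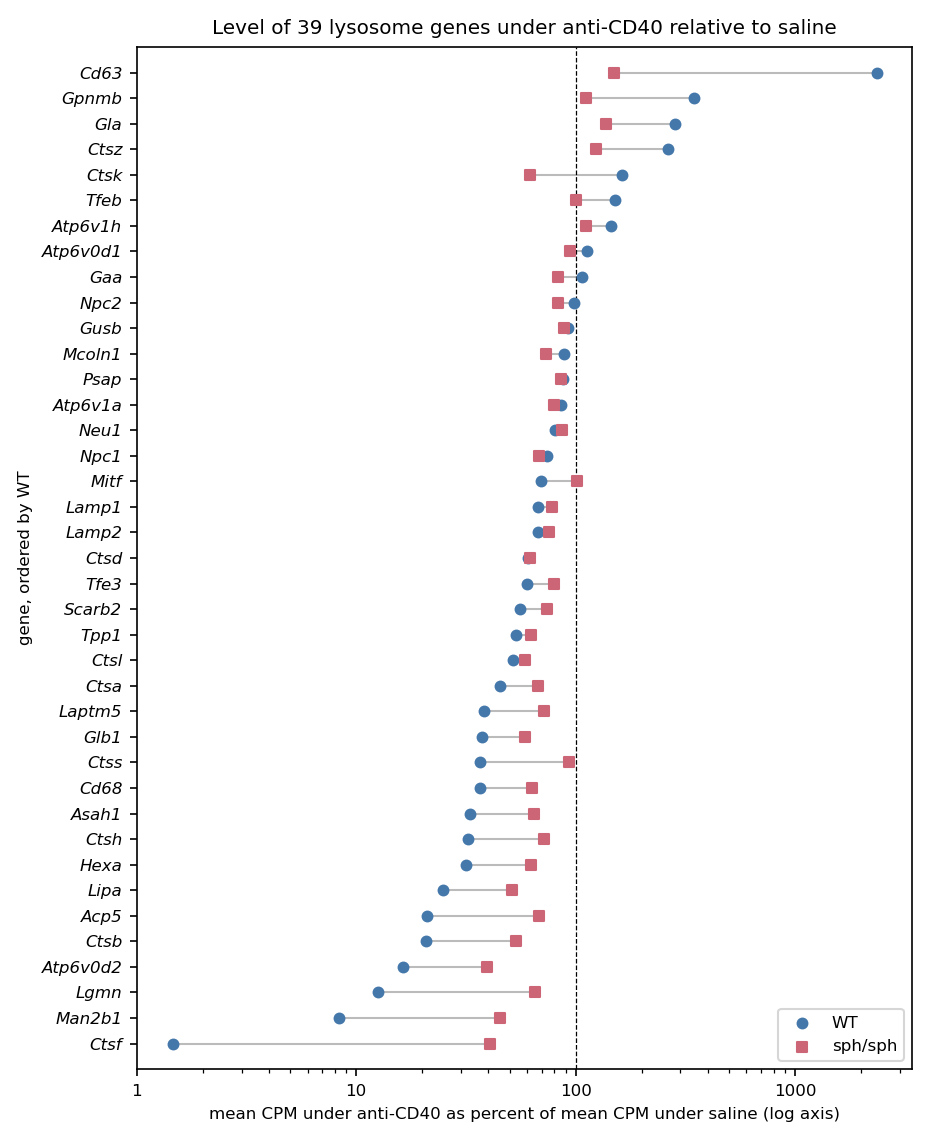
Mean CPM under anti-CD40 as a percent of mean CPM under saline (log x axis) for each of the 39 genes (y axis, ordered by the WT value), in WT (blue circles) and sph/sph (red squares); the dashed line is 100%. Ctsf is at 1.46% in WT and 40.8% in sph/sph, and Ctss at 36.8% and 93.6%.

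Among the membrane proteins, Cd68 stood at 975, 869.6 and 1012 CPM in WT under saline and at 1168, 1066 and 1424 CPM in sph/sph. With anti-CD40, Cd68 stood at 576, 259 and 208 CPM in WT and at 820.5, 860.0 and 639.7 CPM in sph/sph. Cd68 is the macrophage relative of the LAMP proteins. It fell in WT by 1.45 ± 0.34 on the log2 scale (edgeR adjusted p = 0.00777) and was higher in sph/sph under anti-CD40 (1.15 ± 0.34, edgeR adjusted p = 0.0399), a call lost in 10 of the 12 fits that left out 1 library.

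Laptm5 stood at 1802, 1664 and 1807 CPM in WT under saline and at 2048, 1604 and 2185 CPM in sph/sph. With anti-CD40, Laptm5 stood at 858, 691 and 460.3 CPM in WT and at 1337, 1495 and 1349 CPM in sph/sph. Laptm5, a lysosomal protein of blood cells, fell in WT by 1.39 ± 0.24 on the log2 scale (edgeR adjusted p = 0.00151) and was higher in sph/sph under anti-CD40 (1.06 ± 0.24, edgeR adjusted p = 0.013). Its anti-CD40 groups did not overlap, and its saline groups did.

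Lamp2 stood at 686, 706 and 796 CPM in WT under saline and at 691, 564 and 631 CPM in sph/sph. With anti-CD40, Lamp2 stood at 516, 399 and 557 CPM in WT and at 424, 546 and 452 CPM in sph/sph. Lamp2, a main structural protein of the lysosomal membrane, fell in WT by 0.57 ± 0.18 on the log2 scale (edgeR adjusted p = 0.0291), a call lost without any one WT saline library or WT anti-CD40 B. The anti-CD40 groups overlapped (-0.05 ± 0.18, edgeR adjusted p = 0.884). Scarb2 stood at 592, 566 and 709 CPM in WT under saline and at 562, 460.3 and 588 CPM in sph/sph. With anti-CD40, Scarb2 stood at 369, 289 and 387 CPM in WT and at 340.3, 478 and 375 CPM in sph/sph. Scarb2, which carries glucocerebrosidase to the lysosome, fell in WT by 0.84 ± 0.19 on the log2 scale (edgeR adjusted p = 0.0074), and the genotypes overlapped in both treatments. Lamp1, the other abundant LAMP protein, averaged 2000 ± 181 CPM in WT saline, 2166 ± 329.6 CPM in sph/sph saline, 1347 ± 394 CPM in WT anti-CD40 and 1693 ± 299 CPM in sph/sph anti-CD40 (SD, n = 3) and was called in no comparison (in WT -0.57 ± 0.25, edgeR adjusted p = 0.089).

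No proton pump subunit of the list (Atp6v0d1, Atp6v0d2, Atp6v1a or Atp6v1h) was called in any of the 5 comparisons. Atp6v1a, the catalytic subunit, averaged 252 ± 49.1 CPM in WT saline, 298 ± 29.0 CPM in sph/sph saline, 216 ± 76.1 CPM in WT anti-CD40 and 238 ± 56.2 CPM in sph/sph anti-CD40 (SD, n = 3). Its log2 fold with anti-CD40 in WT was -0.22 ± 0.26 (edgeR adjusted p = 0.518). Atp6v0d1 averaged 128 ± 14.7 CPM in WT saline, 188 ± 24.3 CPM in sph/sph saline, 144 ± 40.5 CPM in WT anti-CD40 and 176 ± 42.0 CPM in sph/sph anti-CD40 (SD, n = 3). Atp6v1h averaged 68.7 ± 6.05 CPM in WT saline, 86.3 ± 5.52 CPM in sph/sph saline, 99.3 ± 18.2 CPM in WT anti-CD40 and 96.7 ± 32.1 CPM in sph/sph anti-CD40 (SD, n = 3), and its WT anti-CD40 libraries lay above the saline ones (0.53 ± 0.24, edgeR adjusted p = 0.0962). Atp6v0d2, the form known from osteoclasts, had 0 to 37 counts per library and was at 0 only in WT anti-CD40 B. In both genotypes every anti-CD40 library lay below every saline library. The log2 fold in WT was -2.66 ± 1.13 (edgeR adjusted p = 0.0852). That fall was called by DESeq2, by limma-voom and by edgeR without WT anti-CD40 A.

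Mcoln1, the calcium channel of the lysosome, was also called in no comparison. Mcoln1 stood at 68.5, 69.2 and 60.8 CPM in WT under saline and at 80.4, 68.6 and 73.1 CPM in sph/sph. With anti-CD40, Mcoln1 stood at 72.0, 45.6 and 58.2 CPM in WT and at 44.1, 55.1 and 63.7 CPM in sph/sph. In sph/sph every anti-CD40 library lay below saline (-0.45 ± 0.18, edgeR adjusted p = 0.197), and the other groups overlapped.

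The transcription factors that switch on lysosome genes moved in different directions with anti-CD40 in WT. Tfeb stood at 45.5, 39.6 and 39.2 CPM in WT under saline and at 46.0, 42.0 and 44.1 CPM in sph/sph. With anti-CD40, Tfeb stood at 80.5, 54.2 and 53.4 CPM in WT and at 52.0, 38.7 and 42.0 CPM in sph/sph. Tfeb rose in WT by 0.60 ± 0.18 on the log2 scale (edgeR adjusted p = 0.0226), with WT anti-CD40 A the highest library at 80.5 CPM. Its call was lost without that library, WT saline B or WT saline C. In sph/sph the log2 fold was 0.01 ± 0.18 (edgeR adjusted p = 0.987), and the difference of the responses was -0.59 ± 0.25 (edgeR adjusted p = 0.234).

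Tfe3 stood at 138, 136 and 138 CPM in WT under saline and at 137, 118 and 144 CPM in sph/sph. With anti-CD40, Tfe3 stood at 108, 69.9 and 68.6 CPM in WT and at 110.5, 124 and 83.3 CPM in sph/sph. Tfe3 fell in WT by 0.74 ± 0.20 on the log2 scale (edgeR adjusted p = 0.0155), a call lost without WT anti-CD40 B or C, and the genotypes overlapped in both treatments. Mitf stood at 52.4, 47.0 and 48.9 CPM in WT under saline and at 50.9, 42.8 and 44.9 CPM in sph/sph. With anti-CD40, Mitf stood at 55.1, 22.5 and 25.5 CPM in WT and at 42.7, 65.8 and 31.6 CPM in sph/sph. Mitf was called in no comparison, and all its groups overlapped. RNA levels do not show where these proteins lie in the cell, which is how their activity is known to be controlled.

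Of the 33 genes with a promoter window, 8 held GTCACGTG, among them Lgmn, Gla and Mcoln1, whose windows are printed. With anti-CD40 in WT 3 of 8 genes with it fell and 1 rose, and 12 of 25 without it fell and 3 rose. Their median log2 folds were -0.65 and -0.57. For sph/sph against WT under anti-CD40, 3 of 8 with it and 8 of 25 without it were higher. These are counts with no test.

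A wider list of 111 other lysosome genes, of which 110 were tested, was counted in the same fit. Under saline 5 rose in sph/sph and none fell (4.55%, against 2.04% among all genes), with a median log2 fold of 0.18. The largest were Sort1, a sorting receptor of the Golgi (5.07 ± 0.53, edgeR adjusted p = 0.00282), from 9.26 ± 5.52 to 312 ± 43.4 CPM (SD, n = 3), Ctse, an aspartic protease (4.04 ± 0.74, edgeR adjusted p = 0.0225), and Slc48a1, a heme transporter of the lysosomal membrane (1.82 ± 0.24, edgeR adjusted p = 0.0053). Pld3, an exonuclease of the lysosome, was called with a log2 fold that also rounds to 1.82 (edgeR adjusted p = 0.00456), and the pump subunit Atp6v0a1 with 0.87 ± 0.17 (edgeR adjusted p = 0.0296).

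With anti-CD40 in WT 32 of the 110 fell and 19 rose (46.4%, against 39.2% among all genes), with a median log2 fold of -0.26. The largest falls were those of the phospholipase Pla2g15 (-3.36 ± 0.27), the ion channel Tpcn2 (-2.94 ± 0.33) and the peptidase Cpq (-2.73 ± 0.37), with edgeR adjusted p of 2.49e-05, 0.000152 and 0.000436. The largest rises were those of Ctsw (6.73 ± 1.40), a cathepsin of T and NK cells, Ctse (2.60 ± 0.70) and the cathepsin inhibitor Cstb (2.02 ± 0.54), with edgeR adjusted p of 0.00442, 0.0152 and 0.0144. By group, 10 of 21 transporters and channels fell and 3 rose, 9 of 22 glycosidases and sulfatases fell and 4 rose, and 4 of 12 enzymes for lipids and nucleic acids fell. Of 14 further V-ATPase subunits none fell and 2 rose. Of 15 genes that sort enzymes to the lysosome 3 fell and 3 rose, of 11 proteases and inhibitors 3 fell and 5 rose, and of 15 genes of mTORC1 and folliculin control 3 fell and 2 rose.

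In sph/sph edgeR called none of the 110 with anti-CD40, against 0.780% of all genes, and 36 had an unadjusted p under 0.05, against 21.0% of all genes. Under anti-CD40 27 were higher in sph/sph than in WT and 6 lower (30.0%, against 17.7% among all genes), 10 of the higher ones being transporters and channels. Sort1 (3.31 ± 0.48), Slc48a1 (3.29 ± 0.25) and Pla2g15 (2.67 ± 0.27) led, with edgeR adjusted p of 0.00159, 4.22e-05 and 0.000172. Ctsw (-4.12 ± 1.20), Laptm4b (-2.60 ± 0.26), a membrane protein, and the sulfatase Arsb (-2.17 ± 0.46) had the largest negative folds, with edgeR adjusted p of 0.0389, 0.000168 and 0.0104. The difference of the responses was called for 11 of the 110, 9 positive and 2 negative (10.0%, against 4.30% among all genes).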

How the data were processed

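RNA of 12 preparations of F4/80-enriched liver cells was sequenced from stranded TruSeq libraries, per the labels' protocols. The deposited values are raw read counts per gene, which the authors made with STAR 2.7.0e, SAMtools 1.9 and featureCounts on build GRCm38.p5, per the submitters' processing notes. How strand and multi-mapping reads were handled, and which annotation release was used, is not given in the sources used here. Columns carry no replicate number, so letters A to C only name libraries. Of 25700 identifiers, 25587 matched a symbol.

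Counts were tested with edgeR 4.0.16 under R 4.3.3 (filterByExpr for low counts, TMM, robust quasi-likelihood fit of all 12 libraries, 1 mean per group), with Benjamini-Hochberg adjustment over 13844 genes. Each SE came from the log2 fold over the root of its F statistic. Code was tested on simulated counts. Alternatives were DESeq2 1.42.0, limma-voom (limma 3.58.1), RLE factors, library totals, no filter, fewer groups, a sex term and leaving out libraries. Members and lists were chosen with earlier results of these data known. All 39 members are accounted for, with values in every library for those called, the most abundant and the regulators. Of the other lysosome genes the 3 largest called folds each way are named, with the 2 other genes called under saline and all called for the difference of the responses. A check of the genotype labels is not reported here.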

Additional observations from a re-analysis of the deposited data

Results flagged for a closer look

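For 4 of the 39 members and 11 of the 110 other lysosome genes tested, the response to anti-CD40 differed between sph/sph and WT by the test of the difference itself (edgeR, log2 response in sph/sph less that in WT, ± SE). Among the 39 members these were Ctsf at 4.80 ± 0.38 (edgeR adjusted p = 0.000162), Man2b1 at 2.44 ± 0.41 (edgeR adjusted p = 0.00989), Lgmn at 2.37 ± 0.30 (edgeR adjusted p = 0.00185) and Cd63 at -3.97 ± 0.67 (edgeR adjusted p = 0.0102). Of the other lysosome genes, Tpcn2, an ion channel, had 2.47 ± 0.44 (edgeR adjusted p = 0.0125), the phospholipase Pla2g15 had 2.21 ± 0.36 (edgeR adjusted p = 0.00817), and Pld4, an exonuclease, had 2.04 ± 0.32 (edgeR adjusted p = 0.00673). Slc48a1 had 1.48 ± 0.33 (edgeR adjusted p = 0.033), the sulfatase Arsk had 1.37 ± 0.24 (edgeR adjusted p = 0.0114), and Hgsnat, Ctso, Cd164 and Ctns had 1.16 ± 0.27, 1.13 ± 0.26, 0.96 ± 0.23 and 0.95 ± 0.23 (edgeR adjusted p = 0.0407, 0.04, 0.0444 and 0.0421). Laptm4b had -2.34 ± 0.35 (edgeR adjusted p = 0.00541) and the sulfatase Arsa had -1.37 ± 0.27 (edgeR adjusted p = 0.0186). Pld4 stood at 784 ± 76.1 CPM in WT saline, 738 ± 140.0 in sph/sph saline, 128 ± 35.3 in WT anti-CD40 and 495 ± 22.8 in sph/sph anti-CD40 (SD, n = 3). The causes were not tested.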

How the results depend on the processing

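The count of the 39 genes called under saline (3) was 5 with DESeq2, 1 with limma-voom, 6 with only the groups compared, 1 with a term for sex and 0 without the 4 libraries lacking Y-linked counts, and 0 to 5 when 1 library was left out. With only the groups compared, 5 of these genes rose and 1, Ctsf, fell. For anti-CD40 in WT (22) every alternative kept the count within 1.5 times. For anti-CD40 in sph/sph (1) it was 9 with DESeq2, 0 with library totals, 0 with no filter, 0 with only the groups compared, 0 with a term for sex and 0 without the 4 libraries, and 0 to 6 when 1 library was left out. For genotype under anti-CD40 (15) it was 6 with only the groups compared and 8 to 22 when 1 library was left out. For the difference of the responses (4) it was 8 with DESeq2 and 4 to 12 when 1 library was left out. These counts of members stand without the share of all genes called in the same fits. They do not show that lysosome genes moved more than other genes. The causes were not tested. No fold of a member with an unadjusted p under 0.05 changed sign under any alternative run. No scaling moved the median of all genes by over 0.1. In sph/sph 80 of the 108 genes called were higher, against 92.2% with library totals only. Leaving out the 4 libraries was chosen after seeing the data. No paired analysis was possible because the columns of the table carry no replicate numbers and the genotypes share only 1 ID number in each treatment, that of the A libraries lacking Y-linked counts. With 3 libraries a group and a common biological coefficient of variation of 0.382, a missed call does not show an equal level, and calls near the threshold, as for Gpnmb and for Ctsf in sph/sph, move with single libraries.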
